A study of Mus musculus with 9 samples.

Results

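The 9 genes described here encode signals by which a cell can attract or resist phagocytes, or restrain T and NK cells: Cd274, Pdcd1lg2, Cd276, Cd24a, Calr, Lrp1, Pvr, Nectin2 and Lgals9. They were chosen by symbol, and all 9 were found among the 50813 gene rows of the deposited table. Of these, 8 had at least 1 count in some library and the same 8 passed the filter on low counts, out of 14593 genes that passed it in all. RNA-seq was done on cultured Lewis lung carcinoma (LLC) cells, a mesenchymal-like mouse lung cancer line that was grown in DMEM with fetal bovine serum and stably expresses luciferase. Parental cells (WT) were compared with CD47 knockout (KO) clones E3 and E5, each expanded from a single cell after electroporation of Cas9 ribonucleoproteins that left frameshift indels in Cd47, with 3 libraries for each of the 3 lines. Each KO genotype is thus 1 clone, and the effect of the knockout and that of picking a clone cannot be told apart. In a culture, fewer cells making a transcript and less transcript per cell cannot be told apart either.

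CD47 is a "don't eat me" signal that binds SIRPα on macrophages. CD24 (Cd24a in mice) is another such signal, read by a Siglec receptor. Calreticulin (Calr), a calcium-binding chaperone of the endoplasmic reticulum, acts as an "eat me" signal when it reaches the cell surface, and LRP1, a large endocytic receptor of the LDL receptor family, is its classical receptor on phagocytes. PD-L1 (Cd274) and PD-L2 (Pdcd1lg2) engage PD-1 on T cells, and B7-H3 (Cd276) is a related B7 family protein that is common on tumour cells. The poliovirus receptor homologue PVR and nectin-2 are adhesion molecules that bind the activating receptor CD226 and the inhibitory receptor TIGIT on lymphocytes. Galectin-9 (Lgals9) is a carbohydrate-binding protein that has been described as a ligand of TIM-3 (Havcr2). The question that the comparison answers is whether LLC cells that lost CD47 carried other levels of the transcripts for these signals.

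Library totals ranged from 44257404 to 55095219 counts. Levels below are in CPM, which are a library's counts scaled to a common total with TMM factors, the test is edgeR's quasi-likelihood test over all 14593 genes, and a gene is called at a false-discovery rate (FDR, by Benjamini-Hochberg adjustment) under 0.05. Cd47 itself was at 182.5 ± 3.92 CPM in WT, 44.6 ± 6.87 CPM in KO E3 and 17.4 ± 1.66 CPM in KO E5 (SD, n = 3 for each line, as for all values below). Its transcript remained detectable in all 6 KO libraries. KO E3 replicate 3 stood apart from the other libraries of its line, with a median absolute log2 difference per gene of 0.381 and 0.415 to them, against 0.0777 to 0.168 for the other 7 pairs of replicates. In that library the 896 shortest of 8955 well-expressed transcripts were higher than in the other KO E3 libraries by a median log2 value of 0.59, and the 896 longest differed by a median of -0.94. Without it the test called 43.2% of genes in KO E3 against WT, 42.0% in KO E5 against WT and 44.1% between the clones, beside 30.5%, 20.6% and 31.9% with it, and counts without this library below are to be read against those shares. The genes of the lists below that were called with it stayed called in the same direction without it. Of 15 leukocyte markers, 11 in WT, 11 in KO E3 and 12 in KO E5 had at most 3 counts in every library, among them Ptprc, Adgre1, Itgam and Cd3e, and the list summed to 18.0 to 19.9 CPM in WT, 15.9 to 19.6 CPM in KO E3 and 28.6 to 31.4 CPM in KO E5. In the same order of lines, Cd14 was at 11.5, 11.7 and 21.0 CPM, Itgax at 4.05, 3.24 and 5.625 CPM, and Cd68 at 2.82, 2.44 and 3.04 CPM. Against WT, Cd14 was called higher in KO E5 (FDR = 0.00111) and Lyz2 lower (FDR = 0.00482, from 0.256 to 0.0196 CPM). The epithelial markers Epcam, Cldn4 and Cldn7 had at most 3 counts in every library, while the summed list of 7, nearly all of it keratins, moved with the line, from 450.9 to 458.8 CPM in WT to 127.5 to 198.5 CPM in KO E3 and 896.3 to 957.7 CPM in KO E5. Of 5 mesenchymal markers, only Vim was called against WT with all libraries, higher in KO E3 and KO E5 (log2 fold changes of 0.40 and 0.66, FDR = 0.0301 and 0.00335, beside 15.7% and 8.96% of all genes). Without KO E3 replicate 3, Fn1 was also called lower in both clones (-0.50 and -0.66, FDR = 0.0486 and 0.00736) and Cdh2 higher in KO E5 (0.26, FDR = 0.0229). The list summed to 6072 to 6564 CPM in WT, 6267 to 7023 CPM in KO E3 and 7184 to 8587 CPM in KO E5. The part of these shifts in the results below was not tested.

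Cd274 and Pvr were lower in both clones than in WT, and most of the other genes differed between the clones. In KO E3, 4 of the 8 tested genes were called against WT, where 30.5% of all genes tested were called: Calr and Nectin2 were higher (2 genes, background 15.7%), and Cd274 and Pvr were lower (2 genes, background 14.7%). In KO E5, 6 of 8 were called against WT, with 20.6% of all genes tested called: Cd24a and Lrp1 were higher (2 genes, background 8.96%), and Cd274, Cd276, Pvr and Nectin2 were lower (4 genes, background 11.7%). Without KO E3 replicate 3 these counts were 6 and 7, where 43.2% and 42.0% of all genes were called. Both comparisons share the 3 WT libraries. Between the clones, 7 of 8 were called in KO E5 against KO E3, where the background was 31.9%, with Cd24a, Lrp1 and Pvr higher (3 genes, background 14.7%) and Cd276, Calr, Nectin2 and Lgals9 lower (4 genes, background 17.2%) in KO E5. When an absolute log2 fold change above 1 was also required, 1 gene remained in KO E3 (Pvr, with 9.82% of all genes), 4 in KO E5 (Cd24a, Lrp1, Cd274 and Nectin2, with 8.21%) and 3 between the clones (Cd24a, Calr and Nectin2, with 11.0%). The libraries of the lines did not overlap for 5 of the 8 genes in KO E3 against WT (45.4% of all genes tested), for 7 in KO E5 against WT (55.4%) and for 7 between the clones (44.6%). The median log2 fold change of the 8 tested genes was -0.02 in KO E3 and -0.46 in KO E5, beside 0.01 and -0.00 over all genes tested.

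**Figure D1:**
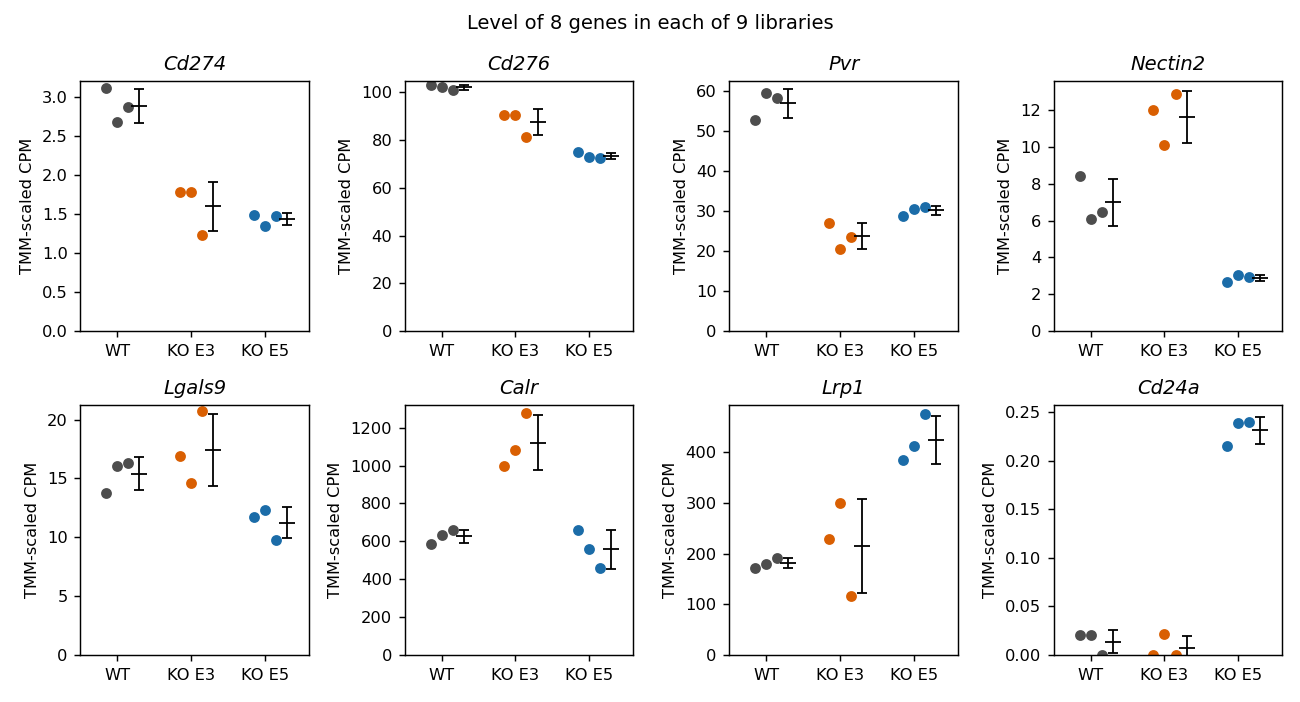
TMM-scaled CPM (y axis, from 0, its own scale for each gene) of the 8 detected genes in the 9 libraries, by line (x axis). Points are libraries, and the bar beside them is the mean ± SD of 3. Cd274 and Pvr lie lower in both clones than in WT, Nectin2 lies above WT in KO E3 and below it in KO E5, and Cd24a is near 0 outside KO E5.

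Cd274, which encodes PD-L1, was lower in both clones than in WT. WT libraries had 3.11, 2.67 and 2.87 CPM, from 155, 127 and 136 counts. KO E3 libraries had 1.78, 1.77 and 1.23 CPM, from 89, 84 and 56 counts, and KO E5 libraries had 1.49, 1.34 and 1.48 CPM, from 69, 62 and 80 counts. Every KO library lay below every WT library, and the ranges of the clones overlapped. The mean was 1.81-fold higher in WT than in KO E3 (log2 fold change -0.85, SE 0.18, FDR = 0.00549) and 2.01-fold higher than in KO E5 (log2 fold change -1.003, SE 0.18, FDR = 0.00316). KO E5 and KO E3 differed by a log2 value of -0.15, with a 95% confidence interval of -0.57 to 0.26 (FDR = 0.570). The lowest KO E3 value belongs to replicate 3, without which the KO E3 log2 fold change was -0.70. Exons of Cd274 share 219 bases with Plgrkt on the opposite strand, whose log2 fold changes were 0.48 in KO E3 (FDR = 0.0523) and -0.11 in KO E5.

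Pdcd1lg2, the gene of PD-L2, lies 22.8 kb downstream of Cd274 on chromosome 19 (GRCm39, chr19:29388319-29448561, plus strand, beside Cd274 at chr19:29344855-29365495). It had 0 counts in all 9 libraries, which allows at most 0.0555 to 0.066 CPM per library (3 counts over the library's TMM-scaled total of tested genes) and 0.00691 CPM over all 9, counting error only. PD-1 itself (Pdcd1) was also at 0 in every library. Among the other B7 family genes, Icosl, the ligand of ICOS on T cells, was at 5.31 CPM in WT, 1.94 CPM in KO E3 and 1.31 CPM in KO E5, and it fell in both clones (log2 fold changes of -1.45 and -2.02, FDR = 0.000194 and 2.36e-05). Vsir, which encodes the checkpoint protein VISTA, rose in both clones, from 5.42 CPM in WT to 13.8 CPM in KO E3 and 8.30 CPM in KO E5 (log2 fold changes of 1.35 and 0.62, FDR = 0.000232 and 0.0222). The list of the B7 family and PD-1 axis also holds Cd274, counted among the lower genes in both clones, and Cd276, among those in KO E5. Of its 11 genes, 6 could be tested, and 2 were higher and 2 lower in KO E3 (15.7% and 14.7% of all genes), 1 higher and 3 lower in KO E5 (8.96% and 11.7%). Without KO E3 replicate 3 it was 3 and 3 in KO E3 (21.8% and 21.5%).

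PD-L1 transcription is driven by interferon-gamma signalling through JAK kinases and IRF1, and CMTM6 keeps the protein at the cell surface. Of 13 genes on a list of these regulators, all tested, 2 were higher and 1 lower in KO E3 (15.7% and 14.7% of all genes), and 4 were higher and 2 lower in KO E5 (8.96% and 11.7%). Without KO E3 replicate 3 it was 4 and 1 (21.8% and 21.5%), and 4 and 4 (20.8% and 21.2%). Irf1 rose in both clones, from 15.3 ± 1.59 CPM in WT to 35.0 ± 5.04 CPM in KO E3 and 20.7 ± 1.26 CPM in KO E5 (log2 fold changes of 1.19 and 0.44, FDR = 0.000116 and 0.0346), while Cd274 fell in both. Nlrc5, a transactivator of MHC class I genes, fell in both clones (log2 fold changes of -1.07, or -0.77 without KO E3 replicate 3, and -2.13, FDR = 0.0289 and 0.00163). Jak2, which lies 54.4 kb from Cd274 on the same chromosome, was lower in KO E5 (26.1 CPM against 44.8 CPM in WT, log2 fold change -0.78, FDR = 0.00251) and at 45.1 CPM in KO E3, where the log2 fold change was 0.01 with a 95% confidence interval of -0.29 to 0.31. The interferon-gamma receptor subunit gene Ifngr2 rose in KO E5 (log2 fold change of 0.70, FDR = 0.00133, beside 0.05 in KO E3, FDR = 0.775), and KO E5 was above KO E3 by a log2 value of 0.65 (FDR = 0.00143). Cmtm6 was at 29.8 CPM in WT, 34.1 CPM in KO E3 and 24.9 CPM in KO E5, and the test found a difference between the clones (log2 fold change -0.45, FDR = 0.00317) but not from WT (FDR = 0.118 and 0.0631). Without KO E3 replicate 3 the KO E5 difference of Cmtm6 from WT passed (-0.25, FDR = 0.00914).

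The starts of Cd274 and Lgals9 carry matches to an interferon response letter pattern, and the start of Calr carries a match to an endoplasmic reticulum stress pattern that is rare among promoters. RefSeq promoters (GRCm38.p6, whereas the counts were made on GRCm39) were at hand for 7 of the 9 genes, all but Cd24a and Pvr, as 250 bases before and 50 bases after the start. On both strands, the core of the interferon-stimulated response element (GAAANNGAA) was found in 8.53% of all 32544 promoters of this length, the gamma-activated site GAS (TTCNNNGAA) in 8.33%, the AP-1 site (TGANTCA) in 7.79%, an NF-kB site (GGGANTTCC) in 1.69% and the ER stress element (CCAAT, then any 9 bases, then CCACG) in 0.12%, or 39 promoters. Cd274 and Lgals9 held the first of these, at 1 and 2 positions, Lrp1 held the second and Calr held the last. Of the genes with a match, the 250 bases before the start are shown for Cd274 and Calr only, at chr19:29367188-29367437 on the plus strand and chr8:84846932-84847181 on the minus strand. They are given 5′ to 3′ with the match, on the opposite strand in both, in capitals.
Cd274: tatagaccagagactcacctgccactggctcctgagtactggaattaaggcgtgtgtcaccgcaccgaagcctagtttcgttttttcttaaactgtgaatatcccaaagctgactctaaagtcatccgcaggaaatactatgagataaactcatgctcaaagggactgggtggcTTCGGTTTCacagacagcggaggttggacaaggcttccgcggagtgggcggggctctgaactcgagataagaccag
Calr: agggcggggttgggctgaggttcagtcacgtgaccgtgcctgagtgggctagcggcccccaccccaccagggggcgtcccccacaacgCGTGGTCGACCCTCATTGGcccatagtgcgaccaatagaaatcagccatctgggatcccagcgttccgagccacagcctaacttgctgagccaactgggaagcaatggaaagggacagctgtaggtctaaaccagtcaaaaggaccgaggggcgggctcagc
The match begins 76 bases before the start in Cd274 and 162 bases before it in Calr. A letter match is a description of the sequence and does not show that a factor is bound.

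Cd276 (chr9:58431581-58462720, minus strand), which encodes B7-H3, was lower in KO E5 than in WT. The WT libraries had 103.0, 102.0 and 100.9 CPM, the KO E3 libraries 90.5, 90.5 and 81.0 CPM, and the KO E5 libraries 74.8, 72.9 and 72.2 CPM. The 3 lines did not overlap, in the order WT, KO E3, KO E5. The mean of WT was 1.39-fold that of KO E5 (log2 fold change -0.48, SE 0.08, FDR = 0.0028), and the KO E3 difference of -0.22 (SE 0.08) did not pass (FDR = 0.0696). When KO E3 replicate 3, the lowest of its line, was left out, that difference was -0.17 and passed (FDR = 0.0283, range over 16 alternatives 0.0252 to 0.221). The clones differed by -0.25 (FDR = 0.0429), a call that 11 of 16 alternatives lost, with FDRs from 0.0013 to 0.169.

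Pvr was lower in both clones, while Nectin2, whose protein shares its receptors, moved in opposite directions. Pvr libraries had 52.9, 59.5 and 58.3 CPM in WT, 27.1, 20.6 and 23.5 CPM in KO E3, and 28.9, 30.6 and 31.1 CPM in KO E5. Every KO library was below every WT library, and KO E5 lay above KO E3. The WT mean was 2.40-fold that of KO E3 (log2 fold change -1.26, SE 0.11, FDR = 4.05e-05) and 1.88-fold that of KO E5 (log2 fold change -0.91, SE 0.11, FDR = 0.000254). The clones differed by 0.35 (FDR = 0.0368), a call that 11 of 16 alternatives lost, with FDRs up to 0.122.

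Nectin2 libraries had 8.43, 6.06 and 6.48 CPM in WT, 12.0, 10.1 and 12.8 CPM in KO E3, and 2.69, 3.04 and 2.92 CPM in KO E5. No library of one line lay within the range of another. The KO E3 mean was 1.66-fold that of WT (log2 fold change 0.73, SE 0.15, FDR = 0.00483), the WT mean was 2.42-fold that of KO E5 (log2 fold change -1.28, SE 0.16, FDR = 0.000303), and the KO E3 mean was 4.03-fold that of KO E5 (log2 fold change -2.01, SE 0.16, FDR = 9.04e-06). When KO E3 replicate 3, the highest library, was left out, the KO E3 log2 fold change was 0.65. Nectin2 (chr7:19450569-19484408) and Pvr (chr7:19637503-19655085) lie 153.1 kb apart on the minus strand of chromosome 7. The other genes tested within 1 Mb of Nectin2, 41 in all, had median log2 fold changes of -0.06 in KO E3 and -0.23 in KO E5. Per transcript length, in TPM (counts divided by transcript length and scaled to a common total), Pvr exceeded Nectin2 by a mean ratio of 7.88 ± 1.75 in WT, 1.93 ± 0.204 in KO E3 and 9.87 ± 0.321 in KO E5. Their summed TPM was 59.3 ± 2.77 in WT, 32.6 ± 4.68 in KO E3 and 29.9 ± 1.25 in KO E5. The ratios of the clones did not overlap.

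In the wider list of nectins, nectin-like proteins and their lymphocyte receptors, 8 of 13 genes were tested, with 1 higher and 3 lower in KO E3 (15.7% and 14.7% of all genes), and 1 higher and 6 lower in KO E5 (8.96% and 11.7%). These counts include Pvr, lower in both clones, and Nectin2, the higher gene in KO E3 and a lower one in KO E5. The median log2 fold change was -0.42 in KO E3 and -1.28 in KO E5, against 0.01 and -0.00 over all genes tested. Without KO E3 replicate 3 the counts were 1 and 4 in KO E3 (21.8% and 21.5%), with Cadm4 added (-0.92, FDR = 0.0219). In KO E5 they were 2 and 6 (20.8% and 21.2%). Nectin1, an adhesion partner of other nectins, fell in both clones, from 19.99 ± 1.65 CPM in WT to 13.6 ± 1.63 CPM in KO E3 and 5.14 ± 0.228 CPM in KO E5 (log2 fold changes of -0.56 and -1.96, FDR = 0.00515 and 2.4e-06). Nectin3 was at 40.9, 40.0 and 46.6 CPM in the 3 lines and passed in neither comparison with WT, except that without KO E3 replicate 3 its KO E5 difference of 0.20 did (FDR = 0.0392). Cadm1, a nectin-like adhesion molecule that binds CRTAM, had 2840 to 3161 counts per library in WT and 2140 to 2872 in KO E3, but 3 to 4 in KO E5 (62.4, 53.3 and 0.0679 CPM; FDR = 7.21e-10 for KO E5 against WT). The fold of Cadm1 in KO E5 rests on these few counts and is not given. Tigit, a receptor that lymphocytes normally carry, was at 2.36 ± 0.533 CPM in WT, 1.95 ± 0.399 CPM in KO E3 and 7.96 ± 0.923 CPM in KO E5, where it rose (log2 fold change 1.75, FDR = 0.00016). Crtam fell in both clones (log2 fold changes of -1.95 and -1.28, FDR = 0.000105 and 0.00117), while Cd226 and Cd96 had 0 counts throughout.

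**Figure D2:**
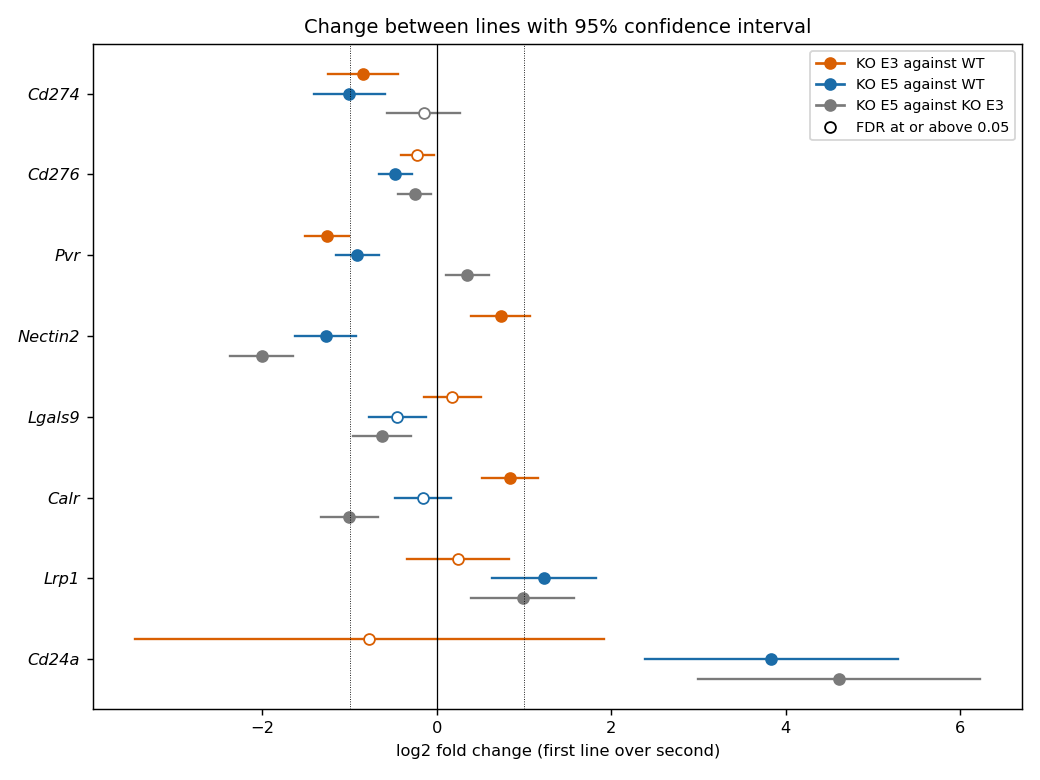
Log2 fold change (x axis) with its 95% confidence interval for the 8 tested genes (y axis) in the 3 comparisons between lines. Filled points are at an FDR under 0.05, open points are not, and dotted lines mark log2 values of -1 and 1. Cd274 and Pvr lie left of 0 in both clones, Nectin2 lies on opposite sides, and the interval of Cd24a in KO E3 is the widest.

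Calr (chr8:85568479-85573563, minus strand), the gene of calreticulin, was higher in KO E3 than in WT and in KO E5. Its libraries had 587.5, 630.9 and 657.8 CPM in WT, 1000, 1082 and 1280.0 CPM in KO E3, and 661.9, 558.0 and 456.4 CPM in KO E5. All KO E3 libraries were above all others, and the KO E5 libraries spanned the WT range. The KO E3 mean was 1.79-fold that of WT (log2 fold change 0.84, SE 0.15, FDR = 0.00181) and 2.01-fold that of KO E5 (log2 fold change -1.004 for KO E5 against KO E3, FDR = 0.000578). In KO E5 the log2 fold change against WT was -0.16, with a 95% confidence interval of -0.48 to 0.16 (FDR = 0.487). When KO E3 replicate 3, the highest library, was left out, Calr stayed higher in KO E3 by a log2 value of 0.73.

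Pdia3 and Hspa5, partners of calreticulin in the endoplasmic reticulum, also differed between the clones. Pdia3, a protein disulfide isomerase that works with calreticulin on glycoproteins, rose in KO E3 from 669.3 ± 37.1 to 1021 ± 95.1 CPM (log2 fold change 0.61, FDR = 0.0028) and was at 594.9 ± 65.6 CPM in KO E5. Hspa5, the chaperone BiP, was at 1244 CPM in WT and 1321 CPM in KO E3 and fell to 765.2 CPM in KO E5 (log2 fold change -0.70, FDR = 0.00125). Canx, the membrane-bound relative of calreticulin, was at 997.2, 1092 and 957.0 CPM and passed in no comparison with all libraries, while without KO E3 replicate 3 it passed in KO E3 (0.22, FDR = 0.0265). Of 15 genes on the list of calreticulin and LRP1 partners, 3 were called in KO E3, all higher (15.7% of all genes), and 1 was higher and 3 lower in KO E5 against WT (8.96% and 11.7%). Between the clones 8 were called, all lower in KO E5 (17.2%), with a median log2 fold change of -0.32 against -0.01 over all genes tested. With KO E3 replicate 3 left out, 6 were higher in KO E3 (21.8% of all genes), 4 were higher and 5 lower in KO E5 (20.8% and 21.2%), and 3 were higher and 10 lower between the clones (22.4% and 21.7%). By likeness over the 9 libraries, as a description, Pdia3 was also the gene whose log2 CPM followed Calr most closely (Pearson r = 0.994), before Srsf4 and Slbp.

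Lrp1 (chr10:127374030-127457017, minus strand), the receptor gene, was higher in KO E5. Its libraries had 172.2, 180.2 and 191.7 CPM in WT, 229.9, 299.1 and 115.4 CPM in KO E3, and 385.1, 412.2 and 476.1 CPM in KO E5. All KO E5 libraries were above all others, and the KO E3 libraries fell on both sides of WT. The KO E5 mean was 2.34-fold that of WT (log2 fold change 1.23, SE 0.27, FDR = 0.00893), and the clones differed by 0.98 (SE 0.27, FDR = 0.0177), or by 0.69 without KO E3 replicate 3. That difference between the clones lost its call without KO E5 replicate 3 (0.90, FDR = 0.0637) and with these lines fitted alone (0.98, FDR = 0.0505), with FDRs from 0.000498 to 0.0637 over 16 alternatives.

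The KO E3 value of Lrp1 was set by single libraries. With all 3 it was 0.24 (SE 0.26, FDR = 0.525), without replicate 3 it was 0.54 and passed (FDR = 0.00216), and without replicate 2 it was -0.0735 (FDR = 0.837). These are the lowest and highest FDRs over 16 alternatives. Lrp1 has the longest transcript of the 9 genes, 14906 bases, and in KO E3 replicate 3 it differed by a log2 value of -1.18 from the other KO E3 libraries, beside -0.94 for the median of the 896 longest transcripts. The other detected members deviated there by -0.51 (Cd274, 3948 bases), -0.16 (Cd276, 3862 bases), -0.01 (Pvr, 2905 bases), 0.22 (Nectin2, 2735 bases), 0.30 (Calr, 2288 bases) and 0.40 (Lgals9, 1546 bases). In WT and KO E5 no library's median for the shortest or longest transcripts deviated by more than 0.0945 in size. The LRP1 chaperone gene Lrpap1 moved opposite to Lrp1 in KO E5, where it fell from 33.2 to 23.4 CPM (log2 fold change -0.50, FDR = 0.00541), and it rose to 42.2 CPM in KO E3 (0.35, FDR = 0.0234).

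**Figure D3:**
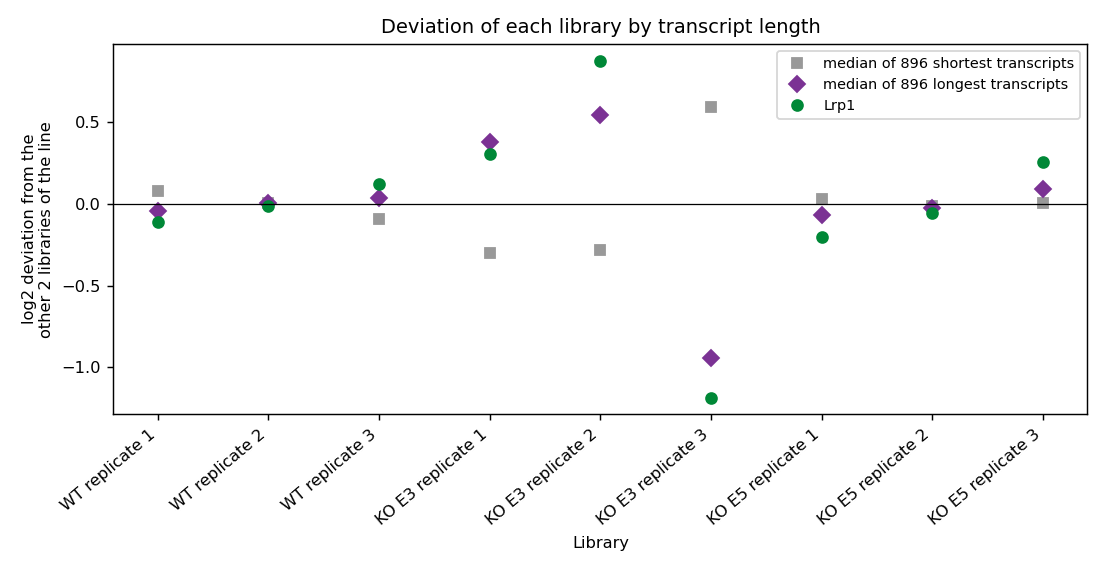
Log2 deviation of each library (x axis) from the other 2 of its line (y axis) for the median of the 896 shortest transcripts, the median of the 896 longest and Lrp1. KO E3 replicate 3 has the shortest at 0.59, the longest at -0.94 and Lrp1 at -1.18, while the WT and KO E5 medians lie within 0.0945 of 0.

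Among other proteins that mark a cell for a phagocyte or bridge the cell to it, Thbs1 had the largest called rise in KO E3. The list of pro-phagocytic signals and bridging proteins also holds Calr, counted among the higher genes in KO E3, and Lrp1, among those in KO E5. Of its 14 genes, 13 were tested, with 5 higher and 2 lower in KO E3 (15.7% and 14.7% of all genes), and 2 higher and 1 lower in KO E5 (8.96% and 11.7%). With KO E3 replicate 3 left out it was 7 and 3 (21.8% and 21.5%), and 5 and 1 (20.8% and 21.2%). Thbs1, which encodes the CD47 ligand thrombospondin-1, rose in KO E3 from 40.4 ± 5.94 to 97.3 ± 24.4 CPM (log2 fold change 1.27, FDR = 0.000539, or 1.46 without KO E3 replicate 3) and was at 43.8 ± 0.726 CPM in KO E5. Mfge8 and Anxa1, a bridging protein and a phosphatidylserine-binding annexin, rose in KO E3 by log2 values of 0.55 and 0.59 (FDR = 0.005 and 0.00537). Pros1, a ligand of the TAM receptors that clear dying cells, rose in both clones (0.42 and 0.57, FDR = 0.00945 and 0.00253). Gas6, its relative, had 11 to 16 counts per library in WT, 0 to 2 in KO E3 and 12 to 24 in KO E5, and was lower in KO E3 (FDR = 0.00195).

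Cd24a (chr10:43454280-43460261, plus strand) was above 1 count per library in KO E5 and in neither of the other lines. The libraries had 1, 1 and 0 counts in WT, 0, 1 and 0 in KO E3, and 10, 11 and 13 in KO E5. The 34 counts of KO E5 against 2 in WT give a ratio of 16.8, with an exact 95% interval of 4.31 to 144, and against 1 in KO E3 a ratio of 33.1 with an interval of 5.56 to 1350, both covering counting error only. Whether both reads of a pair were counted separately is not given in the sources used here. The library totals exceeded the number of reads per sample that the paper states, and the reason was not tested. If both reads were counted, these intervals of Cd24a and the limit for Pdcd1lg2 are too narrow. The differences passed in the fit (FDR = 0.00218 and 0.000968). Even so, the KO E5 level of 0.231 ± 0.0139 CPM was low, at 0.332 TPM below every other detected member of that line. Cd24a shares 110 exon bases with Mtres1 on the opposite strand, which was at 16.2, 14.7 and 17.3 CPM in the 3 lines with a log2 fold change of 0.09 between KO E5 and WT (FDR = 0.762). The 2 annotated copies of its coding sequence, Gm6212 and Gm15352, had 0 counts. Of 9 anti-phagocytic signals and receptors, 3 were tested, 1 of them the edited gene Cd47. With all libraries only Cd47 was called in KO E3 (30.5% of all genes) and only Cd47 and Cd24a in KO E5 (20.6%). Cd200 and Sirpa were at 0 throughout. B2m, the light chain of MHC class I, was also called without KO E3 replicate 3 (0.20 in KO E3, FDR = 0.0495, and -0.30 in KO E5, FDR = 0.00436), where 43.2% and 42.0% of all genes were called.

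Lgals9 (chr11:78853800-78875772, minus strand) was lower in KO E5 than in KO E3, with the WT mean between them. Its libraries had 13.8, 16.1 and 16.3 CPM in WT, 16.9, 14.6 and 20.7 CPM in KO E3, and 11.7, 12.3 and 9.76 CPM in KO E5. KO E5 lay below every other library, and WT and KO E3 overlapped. The clones differed by -0.63 (SE 0.15, FDR = 0.00889). Against WT the KO E5 difference of -0.45 (95% confidence interval -0.78 to -0.12) did not pass (FDR = 0.0548). It passed under 5 of 16 alternatives, among them those without KO E3 replicate 2 (FDR = 0.0332) or 3 (FDR = 0.00552). Over all 16 the FDRs ran from 0.00466 to 0.173. In KO E3 the log2 fold change was 0.18, with an interval of -0.15 to 0.50 (FDR = 0.397). Of 11 galectins and galectin-9 receptors, 7 were tested, and 2 were called in KO E3, both lower (14.7% of all genes). In KO E5 edgeR called 0 of them against WT (3 at an unadjusted p under 0.05) and 20.6% of all genes, DESeq2 called 2 and 25.2%, and without KO E3 replicate 3 edgeR called 4, all lower, and 42.0%. Havcr2, the gene of TIM-3, was at 1.54, 1.76 and 0.905 CPM and differed between the clones (log2 fold change -0.96, FDR = 0.0221).

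**Figure D4:**
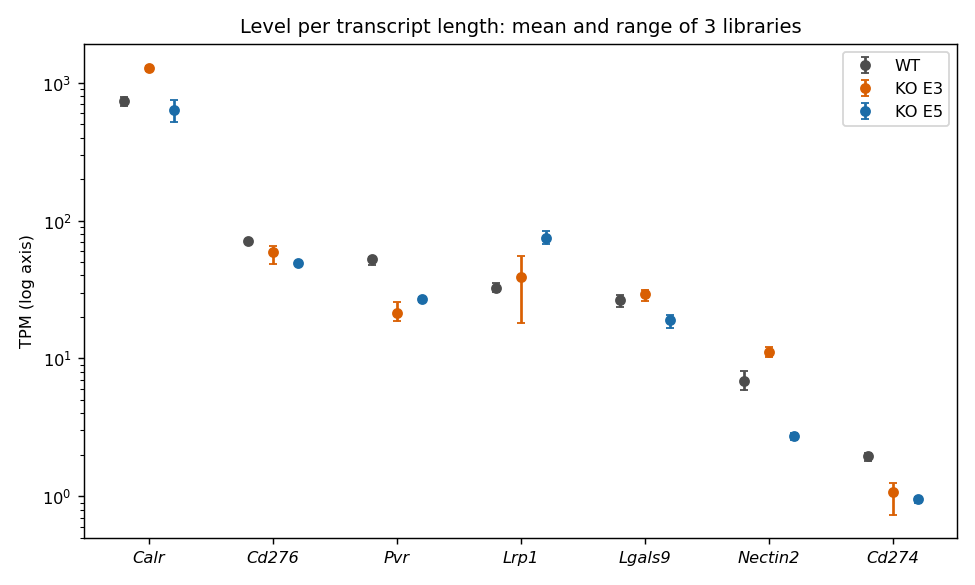
Level per transcript length in TPM (y axis, log scale) of the 7 genes (x axis) whose mean was above 0.9 TPM in every line. Points are the means of 3 libraries and bars run from the lowest to the highest. Calr is highest and Cd274 lowest in each line, while Lrp1 is above Cd276 in KO E5 only.

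Per transcript length, Calr was the most abundant of these transcripts in every line, at 732.7 TPM in WT, 1275 TPM in KO E3 and 636.9 TPM in KO E5. In WT it was followed by Cd276 (70.7 TPM), Pvr (52.5 TPM), Lrp1 (32.6 TPM), Lgals9 (26.7 TPM), Nectin2 (6.84 TPM) and Cd274 (1.96 TPM), and no neighbours in that order had overlapping libraries. Cd24a and Pdcd1lg2 came last, and their libraries overlapped in WT and KO E3. In KO E3 the order was Calr, Cd276, Lrp1, Lgals9, Pvr, Nectin2, Cd274, where the Lrp1 libraries (18.0 to 55.7 TPM) overlapped those of Cd276 (48.8 to 65.1 TPM), Lgals9 (26.3 to 31.2 TPM) and Pvr (18.8 to 25.8 TPM). In KO E5 Lrp1 (74.3 TPM) stood above Cd276 (49.5 TPM), with no overlap between neighbours. Cd274 was thus the least abundant detected T and NK cell ligand transcript among the 9 genes in all 3 lines, at 1.07 TPM in KO E3 and 0.949 TPM in KO E5. The genes that followed the others most closely over the 9 libraries, as a description in which all points share the same 3 lines, were Slc25a40 for Cd274 (r = 0.987), Sema3a for Cd276 (0.987), Adamts14 for Pvr (0.991), Plod1 for Nectin2 (0.989), Antxr1 for Lrp1 (0.987), Tnfrsf21 for Cd24a (0.985) and Gsk3a for Lgals9 (0.974).

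Of 18 other checkpoint and NK ligand genes, 8 were tested, with 2 called in KO E3, both higher (15.7% of all genes), and 1 higher and 3 lower in KO E5 (8.96% and 11.7%). With KO E3 replicate 3 left out, it was 3 in KO E3 (21.8%), and 1 higher and 4 lower in KO E5 (20.8% and 21.2%). Raet1d, Ulbp1 and Raet1e encode ligands of the NK cell receptor NKG2D. Raet1d rose in KO E3 from 3.72 ± 0.113 to 7.44 ± 0.852 CPM (log2 fold change 1.00, FDR = 0.00114) and fell in KO E5 to 0.641 ± 0.158 CPM (-2.54, FDR = 8.32e-06). Ulbp1 fell in KO E5 from 14.1 ± 1.08 to 1.99 ± 0.155 CPM (-2.82, FDR = 5.43e-06) and was at 18.2 ± 4.70 CPM in KO E3, a difference from WT that passed only without KO E3 replicate 3 (0.56, FDR = 0.000815). As for Nectin2, the KO E3 mean was the highest and the KO E5 mean the lowest for Raet1d and Ulbp1, and the clones differed by -3.54 and -3.19 (FDR = 4.52e-07 and 1.42e-06). Raet1e, whose span on chromosome 10 includes that of Raet1d on the same strand, was at 13.2, 11.7 and 10.8 CPM in WT, KO E3 and KO E5. It passed neither against WT (FDR = 0.259 and 0.0894) nor between the clones (FDR = 0.454). Without KO E3 replicate 3 its KO E5 difference from WT passed (-0.28, FDR = 0.0212). Nt5e, which encodes the adenosine-producing enzyme CD73, rose in KO E5 from 0.172 to 1.57 CPM (log2 fold change 3.16, FDR = 3.3e-05). Tnfrsf14 fell in KO E5 (-2.03, FDR = 0.0278), and Fas rose in KO E3 (2.22, FDR = 0.00239), each from under 1 CPM.

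**Figure D5:**
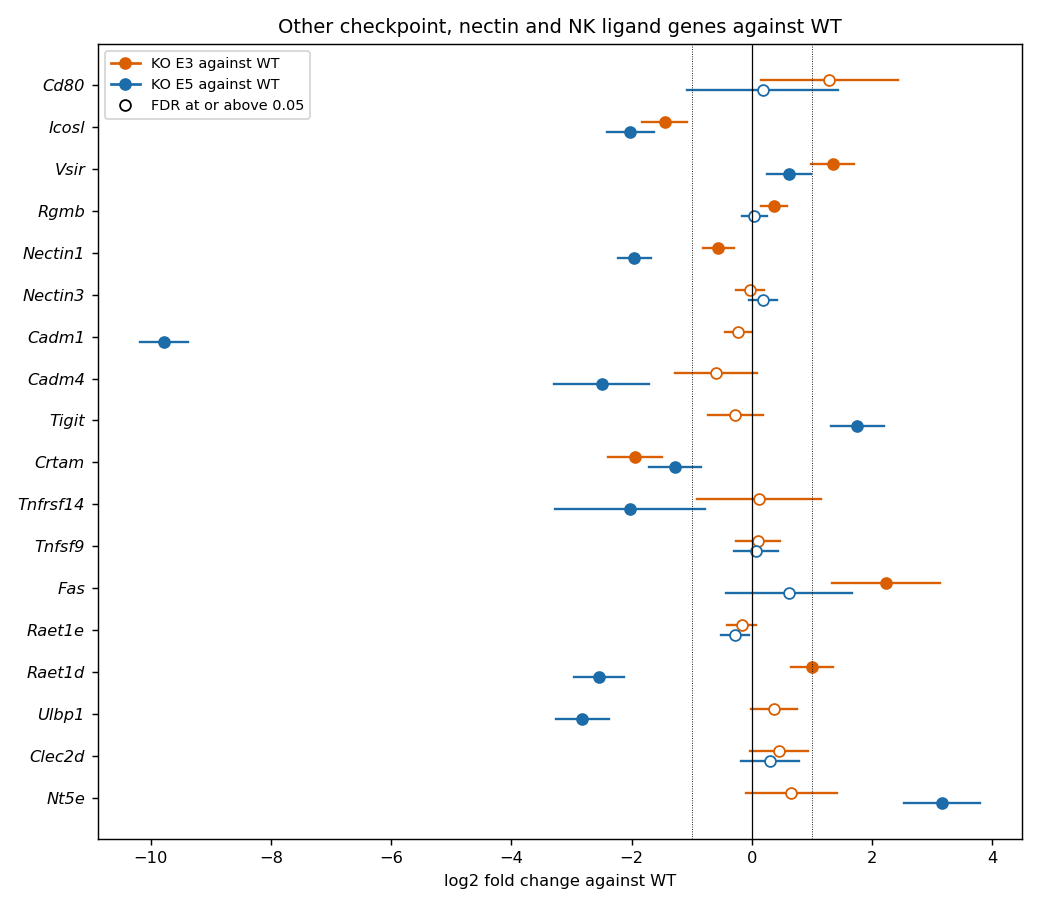
Log2 fold change against WT (x axis) with its 95% confidence interval for every tested gene (y axis) of the lists of B7 family and PD-1 axis, nectins and their receptors, and other checkpoint and NK ligands that is not one of the 9. Filled points are at an FDR under 0.05. Icosl and Crtam lie left of 0 in both clones, and Cadm1 in KO E5 is furthest left, a value that rests on 3 to 4 counts per library.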

How the data were processed

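Total RNA of LLC cells was poly(A)-selected, prepared as directional libraries and sequenced in pairs, in 3 independent replicates for WT, KO E3 and KO E5. After FastQC checks and Trimmomatic trimming, the authors used STAR against GRCm39 and deposited raw counts per gene, neither normalized nor pooled. Which program counted, whether by strand and on which gene models is not given in the sources used here, so reads of opposite-strand overlaps cannot be assigned with certainty. These touch exons of Cd274 (Plgrkt), Cd276, Cd24a, Lrp1 and Nectin2.

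From the counts, edgeR 4.0.16 (R 4.3.3) was used with TMM scaling, filterByExpr (minimum count 10, minimum total 15) and 1 quasi-likelihood fit of all 9 libraries, with Benjamini-Hochberg adjustment over 14593 genes. SE is the absolute log2 fold change over the root of F. TPM used GENCODE M39 canonical transcript lengths, matched by gene ID for 98.9% of rows. Coding copies were searched with BLAST 2.17.0. No pooled or other per-sample columns were left out.

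The members and lists were chosen with earlier results of these data known. Besides the members, each list's 2 most negative and 2 most positive called genes and genes tied to a member's role could be named, as could the 3 genes most correlated with a member; not all are reported. Alternatives were DESeq2 1.42.0, other scalings and filters, the lines compared alone, a replicate block and leaving out each library. Counts of each list without KO E3 replicate 3, and the values of Raet1e, were added after seeing the data. The procedure was tested on simulated data. Depths of 44257404 to 55095219 counts leave counting error large for genes under about 1 CPM.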

Additional observations from a re-analysis of the deposited data

Results flagged for a closer look

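The responses of KO E3 and KO E5 to the same contrast with WT differed, by the test of KO E5 against KO E3, for 7 of the 8 tested genes. Over all genes tested, 31.9% were called in that comparison. The differences in log2 fold change, KO E5 minus KO E3, were -0.25 for Cd276, 4.61 for Cd24a (from 34 counts against 1, a fitted value that depends on the prior count and ran from 4.13 to 6.50 when 1 library was left out), -1.004 for Calr, 0.98 for Lrp1, 0.35 for Pvr, -2.01 for Nectin2 and -0.63 for Lgals9. Those of Cd276 and Pvr lost the call under 11 of 16 alternatives each, and that of Lrp1 under 2 of 16.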

How the results depend on the processing

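The calls of Cd274, Calr, Pvr and Nectin2 against WT, and of Cd276 and Lrp1 in KO E5 against WT, stayed on their side of the threshold under all 16 alternatives. Of 379 refits of single members, 346 kept direction and call, 24 lost the call, 8 gained it and 1 reversed: Lrp1 in KO E3, which ranged from -0.0735 without replicate 2 to 0.54 without replicate 3. With only the lines compared in the fit, 3 members and 3122 genes were called between the clones, and 6596 genes in KO E5 against WT. Leaving out 1 library each gave 4 to 6 members called in KO E3, 6 to 7 in KO E5 and 4 to 7 between the clones (4 without KO E5 replicate 3), and 2875 to 6423, 1767 to 6246 and 3235 to 6555 genes against 4445, 3012 and 4661. Without KO E3 replicate 3, 6246 genes were called in KO E5 against WT. The deviations of libraries from their line had correlations of -0.172 to 0.0472 for the same replicate number. For different numbers the correlations were -0.161 to 0.183. Since deviations were centred within lines of 3 libraries, whether the numbers pair the libraries could not be decided. With the replicate number as a block, 4, 6 and 5 members and 3664, 2309 and 3887 genes were called in the 3 comparisons, and Cd276 (FDR = 0.0926) and Pvr (FDR = 0.0766) lost the call between the clones. DESeq2 called 5, 7 and 7 members and 34.2%, 25.2% and 35.8% of all genes. Upper-quartile scaling moved the split of higher and lower genes from 2296 and 2149 to 2715 and 1741 in KO E3, and from 2147 and 2514 to 1705 and 3054 between the clones. Cd24a leaves the test when 10 counts are required in every library. The cause of these shifts was not tested. Depth limits Cd24a, Gas6, Fas and Nt5e, whose lowest groups hold few counts.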
